A study of Mus musculus with 50 samples.

Results

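Messenger RNA bound to the ribosomes of D1 medium spiny neurons (D1-MSNs) was compared with the RNA of the whole nucleus accumbens (NAc) in mice that had been through chronic social defeat. The comparison holds 15 of the 50 samples of the series. They are the 9 D1 immunoprecipitates (IPs) of defeated mice, 4 from resilient (Res) and 5 from susceptible (Sus) mice, and the 6 D1 input libraries of defeated mice, 3 Res and 3 Sus. They were taken by their labels, without use of any measured value.

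All 15 libraries came from RT; D1-Cre mice on a C57BL/6 background (C57BL/6J in the study's methods), aged 8 to 12 weeks, which carry both the RiboTag (RT) allele and a D1-Cre transgene. In RT mice, Cre recombinase swaps the last exon of *Rpl22*, a gene of the large ribosomal subunit, for a copy that ends in an HA tag, so that ribosomes of cells with Cre can be pulled down with an antibody against HA. The Cre came from a single BAC transgenic line driven by the dopamine receptor gene *Drd1*, so the IP holds the mRNA of whichever cells express that transgene. Each library pooled tissue punches from 2 mice. The IP came from most of a cleared lysate, and the input from the supernatant that was kept back before the antibody was added. Mice met an aggressive CD1 male daily for 10 days and were then sorted by their social interaction score. The labels give 10 min for each meeting and the study's methods give 5 min. Undefeated D1 mice (Con, 4 IPs and 3 inputs) and defeated D2-Cre mice (10 IPs and 6 inputs) are used below only for differences from the defeated D1 mice.

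The NAc is built mostly of GABAergic medium spiny neurons of 2 kinds. D1-MSNs carry the dopamine receptor *Drd1* and make the peptides dynorphin (*Pdyn*) and substance P (*Tac1*), whereas D2-MSNs carry *Drd2* and the adenosine receptor *Adora2a* and make enkephalin (*Penk*). Cholinergic and GABAergic interneurons, astrocytes, oligodendrocytes and their precursors, microglia and vessel cells make up the rest of the tissue. A ribosome IP keeps RNA that is on tagged ribosomes, whereas an input also holds the RNA of all other cells, nuclear RNA and RNA that is not being translated. In such bulk samples, fewer cells of a type and less RNA per cell cannot be told apart.

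Depth ran from 22874477 to 29622460 counts on genes in the IPs and from 18384265 to 21754395 in the inputs. IPs stood apart from inputs on the first principal component, which held 78.6% of the variance of log2 values. Pearson's r between libraries averaged 0.9896 within the IPs, 0.9879 within the inputs and 0.9411 between an IP and an input. Reads that mapped outside all annotated exons made up 11.5% ± 1.11 of the reads placed inside or outside them in the IPs (SD, n = 9) and 25.5% ± 0.986 in the inputs (SD, n = 6), and the ranges did not overlap (two-sided exact permutation test, p = 0.0002, the smallest p that 5005 divisions of the libraries allow). The tagged gene *Rpl22* lay at 35.7 to 45.5 counts per 1000000 gene counts (CPM, scaled by TMM factors) in the IPs and at 49.2 to 52.1 CPM in the inputs. Its tag is not counted separately, so this value does not check the genotype. The input of D1 Res 3 and the IP of D1 Sus 3 held the most mRNA of cortical excitatory neuron markers among the inputs and among the IPs, and values without both are given beside the results that moved most with them.

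Of 14852 genes tested, 6159 (41.5%) differed between IP and input by a fold change over 1.5 at an adjusted p under 0.05 (edgeR quasi-likelihood test with the stress group as a covariate). The IP was higher for 2058 genes (13.9%) and lower for 4101 genes (27.6%), and the median log2 difference over all genes tested was -0.02. These percentages are the background against which the counts of each gene list below are to be read. Genes that were lower in the IP were lower by far more than others were higher. Of the lower genes, 2977 fell by over 2-fold, 1464 by over 4-fold and 154 by over 16-fold, whereas 315 genes rose by over 2-fold and 2 by over 4-fold. IP and input libraries did not overlap at all for 1863 of the higher and 3285 of the lower genes. The balance rested on the scaling. Higher genes were 33.4% of the calls with TMM factors, 21.9% with upper-quartile factors and 18% with no factors, which moved the median of all genes to -0.14 and -0.18. Without the input of D1 Res 3 and the IP of D1 Sus 3, 2070 genes were higher and 4218 lower.

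**Figure D1:**
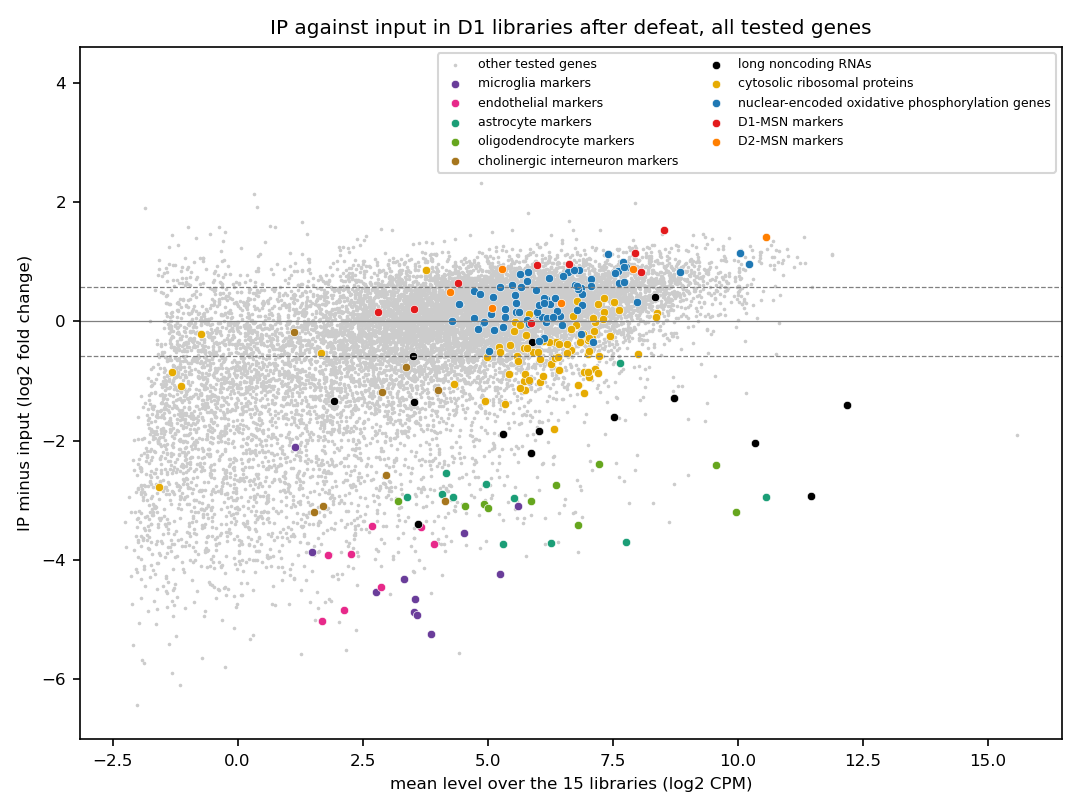
Each point is 1 of the 14852 genes tested, with its mean level over the 15 libraries (log2 CPM) on the x axis and its IP minus input difference (log2) on the y axis, dashed lines at a 1.5-fold difference and marker and function lists in colour. Glial, endothelial and cholinergic markers lie far below 0, D1-MSN and D2-MSN markers lie at or above it, and differences run from -6.43 to 2.32.

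Lists of glial and vessel markers had the lowest medians of all lists. All 11 astrocyte, 10 oligodendrocyte, 6 oligodendrocyte precursor, 11 microglia and 8 endothelial markers fell, and 7 of 8 mural cell markers fell. Median log2 differences were -2.95 for astrocytes, -3.04 for oligodendrocytes, -2.81 for precursors, -4.31 for microglia, -3.91 for endothelium and -4.14 for mural cells. The medians in Res and Sus mice were furthest apart for endothelium (-4.16 and -3.74) and closest for oligodendrocytes (-3.08 and -3.02).

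*Mbp*, the main basic protein of myelin, lay at 281, 203, 198 and 257 CPM in the Res IPs and at 252, 276, 194, 232 and 200 CPM in the Sus IPs. It lay at 2080, 2700 and 1730 CPM in the Res inputs and at 2140, 2230 and 1940 CPM in the Sus inputs. Every IP was far below every input, and the log2 difference was -3.20. The transporter *Slc1a2*, which clears glutamate into astrocytes, lay between 341 and 514 CPM in the IPs and between 3050 and 3320 CPM in the inputs (log2 difference -2.95). *Slc4a4*, a bicarbonate transporter, was the mildest of the astrocyte list, with 137 to 178 CPM in the IPs, 225 to 274 CPM in the inputs and a log2 difference of -0.70.

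Microglial mRNA was almost absent from the IPs. The summed level of the 11 markers was 28.5 ± 3.86 CPM in the IPs (SD, n = 9) and 413.6 ± 30 CPM in the inputs (SD, n = 6). *P2ry12*, a purinergic receptor of resting microglia, lay between 0.565 and 1.61 CPM in the IPs and between 32.9 and 42.3 CPM in the inputs, a log2 difference of -5.24 ± 0.14 (SE). The fractalkine receptor *Cx3cr1* ranged from 2.83 to 6.37 CPM in the IPs and from 45.7 to 58.6 CPM in the inputs. Of the vessel genes, the tight junction protein *Cldn5* lay between 0.95 and 1.74 CPM in the IPs and between 11.9 and 15.2 CPM in the inputs, and *Cdh5*, the cadherin of endothelial junctions, fell most (log2 difference -5.02). *Tagln*, a smooth muscle actin binder, was the mural gene that did not pass the test, at 3.69 ± 1.34 CPM in the IPs and 3.42 ± 1.83 CPM in the inputs. Summed levels of these 6 lists did not overlap between IPs and inputs (exact permutation p = 0.0002 for each).

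Genes of the microglia and of other immune cells also made up the 10 largest decreases among genes whose libraries did not overlap and whose inputs averaged at least 1 CPM, apart from *Scarna17*, a small RNA of Cajal bodies, and *Hhex*, a homeobox factor. *C3ar1*, the receptor of complement fragment C3a (chromosome 6, 122847138 to 122856161, GRCm38), had 7 counts over the 9 IPs together and 260 over the 6 inputs. *Ctss*, a lysosomal cathepsin, had 251 and 6966 counts, and lay between 0.424 and 1.74 CPM in the IPs and between 46.9 and 58.2 CPM in the inputs (log2 difference -5.56 ± 0.16 SE, adjusted p = 2.68e-15). *Cd53*, *Gpr34*, *Srgn*, *Cd180* and *P2ry13* followed, with log2 differences from -5.57 to -5.18. For *Hhex*, *C3ar1*, *Srgn*, *Cd180* and *Scarna17*, which had 5 to 16 counts over all IPs, the exact size of the fold is uncertain.

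**Figure D2:**
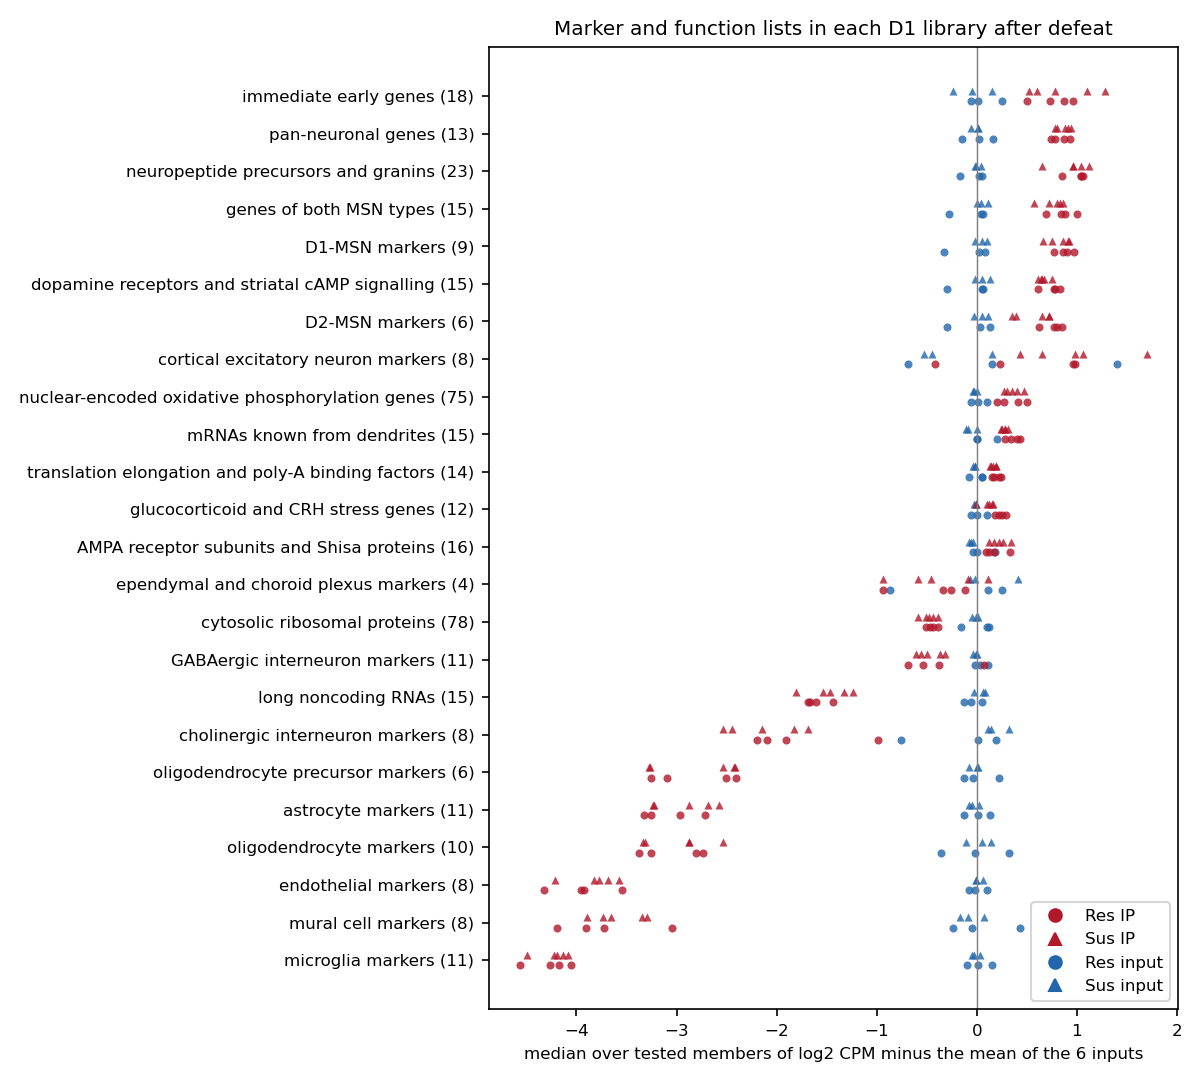
Each point is 1 library, and its place on the x axis is the median over the tested members of a list (number in brackets) of log2 CPM minus the mean of the 6 inputs, with IPs in red, inputs in blue, Res as circles and Sus as triangles. All IPs lie left of all inputs for the glial, vessel and cholinergic lists and right of them for the lists of MSN, pan-neuronal and neuropeptide genes, whereas IPs and inputs overlap for the cortical list.

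Neuronal and MSN genes were higher in the IP, by about the same modest amount. In the D1-MSN list 6 of 9 markers rose, in the list of genes of both MSN types 9 of 15 and in the pan-neuronal list 9 of 13, and none of the 37 fell. Median log2 differences were 0.82, 0.83 and 0.85. *Drd1* (chromosome 13, 54051183 to 54055705, GRCm38) lay at 305, 340, 332 and 357 CPM in the Res IPs and at 346, 317, 289, 308 and 331 CPM in the Sus IPs, against 195, 179 and 140 CPM in the Res inputs and 189, 189 and 212 CPM in the Sus inputs. The lowest IP was well above the highest input, and the log2 difference was 0.82. *Pdyn*, the dynorphin precursor, had the largest difference of the list, with 409 to 585 CPM in the IPs and 128 to 186 CPM in the inputs (log2 difference 1.54). *Tac1* and the muscarinic receptor *Chrm4* rose as well, by log2 differences of 1.15 and 0.97. *Sfxn1*, *Eya1* and *Ebf1* did not pass the test, with log2 differences of -0.03, 0.16 and 0.21. *Isl1*, a transcription factor of the striatonigral lineage, was called with all libraries (log2 difference 0.64), and 5 of 9 markers, and 8 of 15 genes of both MSN types, were called without the input of D1 Res 3 and the IP of D1 Sus 3.

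Of the genes of both MSN types, *Ppp1r1b* (DARPP-32, the phosphatase regulator downstream of dopamine) lay between 1310 and 1860 CPM in the IPs and between 536 and 765 CPM in the inputs, a log2 difference of 1.20. The sodium channel subunit *Scn4b* and the transcription factor *Bcl11b* followed with 1.06 and 0.97. *Rbfox3*, which encodes the neuronal nuclear antigen NeuN, lay between 452 and 521 CPM in the IPs and between 225 and 280 CPM in the inputs, a log2 difference of 0.95, and the neurofilament gene *Nefm* had 1.24. The dendritic microtubule protein *Map2*, the vesicle protein *Syt1* and *Stmn2* were below the limit of 1.5-fold (0.36, 0.50 and 0.50). So was *Gad2* (0.56), whereas *Gad1*, the other enzyme of GABA synthesis, passed it (0.66).

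Markers of the other MSN type were also higher in the D1 IP than in the input. Of 6 D2-MSN markers, *Penk*, *Adora2a* and *Gpr6* rose and none fell (median log2 difference 0.69). *Penk* lay at 1910, 2090, 2290 and 2230 CPM in the Res IPs and at 2080, 1880, 1700, 1890 and 2170 CPM in the Sus IPs. Its inputs were 799, 844 and 568 CPM in Res and 829, 723 and 809 CPM in Sus mice, so that the groups were far apart (log2 difference 1.41). *Drd2* itself lay between 79.7 and 110 CPM in the IPs and between 59.7 and 84.6 CPM in the inputs. Those ranges overlapped, and its log2 difference of 0.32 was below the limit. *Gpr52* and *Sp9* did not pass either, with 0.23 and 0.49.

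**Figure D3:**
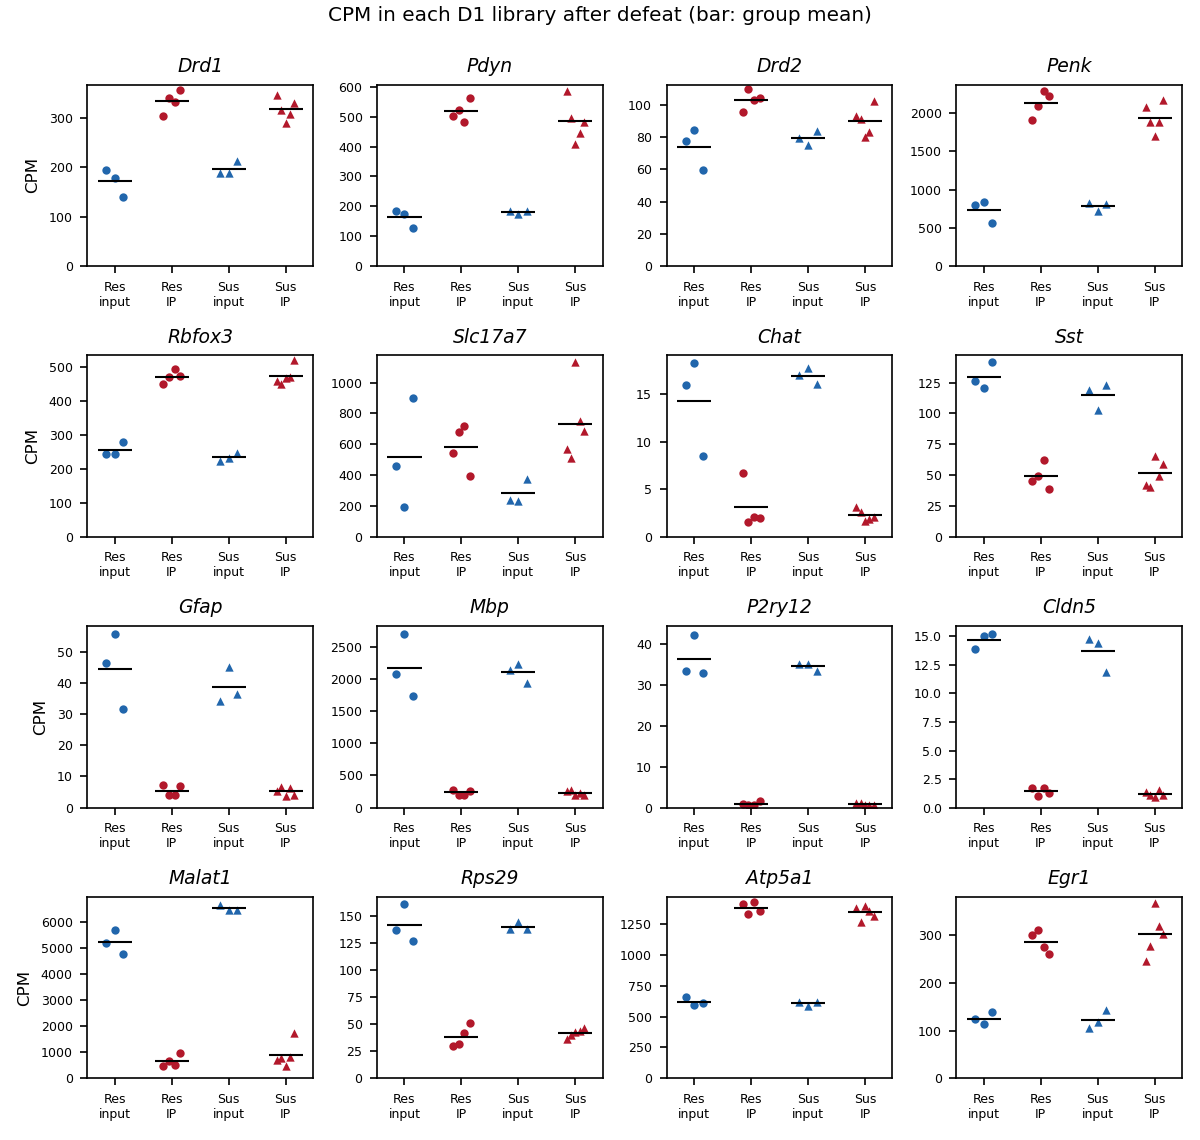
Levels (CPM, linear axes from 0) of 16 genes are plotted for every library, with inputs in blue and IPs in red for Res and for Sus mice, and a bar at each group mean. *Drd1*, *Pdyn* and *Penk* sit higher in all 9 IPs than in all 6 inputs, *Chat*, *Sst*, *Mbp*, *P2ry12* and *Malat1* sit lower, and *Slc17a7* overlaps.

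Markers of cholinergic interneurons were lower in the IP. Of 8 cholinergic markers 7 fell, with a median log2 difference of -1.88. *Chat*, the enzyme that makes acetylcholine (chromosome 14, 32408203 to 32465989), lay at 6.72, 1.57, 2.12 and 1.99 CPM in the Res IPs and at 3.16, 2.63, 1.68, 1.92 and 2.12 CPM in the Sus IPs. The inputs held 16, 18.3 and 8.5 CPM in Res and 17.1, 17.8 and 16.1 CPM in Sus mice. The highest IP, D1 Res 1, was below the lowest input, D1 Res 3, and the log2 difference was -2.57. The choline transporter *Slc5a7* fell further (-3.01), and *Slc17a8*, a vesicular glutamate transporter of these cells, fell less (-0.76). Of 11 GABAergic interneuron markers 4 fell, 1 rose and 6 were not called, where 27.6% of all genes fell. *Npy*, *Vip*, *Sst* and *Nos1*, which encode peptides and the nitric oxide synthase of interneurons, had log2 differences of -1.93, -1.56, -1.28 and -0.61. *Sst* lay between 38.7 and 65.7 CPM in the IPs and between 103 and 142 CPM in the inputs. *Pvalb*, *Lhx6* and *Htr3a* had values of -0.53, -0.43 and -0.61 and were not called with TMM factors. *Cck* rose, at 49.7 to 133 CPM in the IPs and 19.6 to 82.5 CPM in the inputs, with overlap (log2 difference 1.16, and 1.44 without the input of D1 Res 3 and the IP of D1 Sus 3). It is also a gene of cortical neurons.

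Markers of cortical excitatory neurons, which are not cells of the NAc, varied more between libraries than between IP and input. *Slc17a7*, the vesicular glutamate transporter of cortical cells (chromosome 7, 45163949 to 45176142), lay at 540, 677, 718 and 393 CPM in the Res IPs and at 569, 512, 1130, 749 and 689 CPM in the Sus IPs. The Res inputs held 460, 195 and 897 CPM and the Sus inputs 240, 233 and 375 CPM. The input of D1 Res 3 was higher than 8 of the 9 IPs. Of 8 markers, *Slc17a7*, *Tbr1* and *Neurod2* were called higher in the IP (log2 differences 0.77, 0.76 and 0.78), and none was lower. With no normalization factors none was called and with upper-quartile factors 1 was. The median of the list was 0.60 with all libraries, -0.03 in Res and 1.32 in Sus mice, and 0.98 with 5 of 8 called when the input of D1 Res 3 and the IP of D1 Sus 3 were left out, which moved *Slc17a7* to 1.01. The summed level ranged from 523.9 to 1471 CPM in the IPs and from 301.6 to 1176 CPM in the inputs (two-sided exact permutation test, p = 0.055). *Cux2* of the upper cortical layers and *Slc17a6* had values of -0.19 and -0.24. The part of tissue outside the NAc in these levels was not tested. Of 8 ependymal and choroid plexus markers, 4 passed the filter on low counts. The ciliary genes *Ccdc153* and *Foxj1* fell (log2 differences -1.99 and -0.86), *Kl* rose (0.64), and *Ttr*, the transthyretin of choroid plexus, was at 0 in 3 of 9 IPs and 3 of 6 inputs and at most 1.83 CPM. IPs and inputs overlapped for each of these 4 genes. The summed level of the 8 markers was 15.7 ± 1.82 CPM in the IPs and 14.6 ± 2.77 CPM in the inputs (SD, two-sided exact permutation test, p = 0.39). The median of the list was -0.11, and -0.90 with 1 of 5 higher and 3 lower when the input of D1 Res 3 and the IP of D1 Sus 3 were left out.

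Noncoding RNAs were lower in the IP than in the input. Of the 15 long noncoding RNAs listed by name and tested, 12 fell and none rose, with a median log2 difference of -1.41. *Malat1*, which stays in nuclear speckles (chromosome 19, 5795690 to 5802672), lay at 464, 659, 502 and 969 CPM in the Res IPs and at 703, 776, 479, 811 and 1740 CPM in the Sus IPs. It lay at 5220, 5690 and 4790 CPM in the Res inputs and at 6670, 6470 and 6470 CPM in the Sus inputs. The IP of D1 Sus 5 stood above the other IPs yet far below every input, and the log2 difference was -2.93. *Snhg11* and *Neat1*, the RNA that builds paraspeckles, fell by log2 differences of -2.03 and -1.84. *Meg3*, an imprinted RNA with the most counts of the list in the IPs, was between 2140 and 3810 CPM in the IPs and between 6430 and 8160 CPM in the inputs (-1.41). *Mirg*, from the same imprinted cluster, had -3.40. *Peg13* went the other way with a value of 0.41, which is below the limit of 1.5-fold.

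The same contrast held over the annotated classes. Of 585 genes that RefSeq calls lncRNA, 56.6% were lower in the IP and 1.54% higher, against 25.9% and 14.6% of 13799 protein-coding genes. All 21 snoRNA genes that passed the filter on low counts were lower (median log2 difference -2.50), and 53 of 66 miRNA genes were lower and 3 higher (median -2.15). Libraries were made from poly-A RNA of larger fragments, so that reads assigned to snoRNA and miRNA genes cannot be told apart from reads of the introns and precursors that carry them, and say nothing of the mature small RNAs. These values stand beside the share of reads outside annotated exons, which also was lower in the IPs. The 13 mRNAs encoded by mitochondrial DNA were not analysed here.

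Messenger RNAs of cytosolic ribosomal proteins were lower in the IP. Of 78 tested, 29 fell and 1, *Rps4l*, rose, and the median log2 difference was -0.49 (-0.49 in Res and -0.47 in Sus mice). Together the genes of the list held 0.633% ± 0.0302 of the gene counts in the IPs (SD, n = 9) and 0.909% ± 0.059 in the inputs (SD, n = 6), without overlap (a difference of -0.276 percentage points, exact permutation p = 0.0002). As a share of all reads in the table, of which fewer fell on genes in the inputs, the difference was -0.0607 percentage points and the ranges overlapped (0.451% to 0.554% in the IPs, 0.534% to 0.614% in the inputs, exact permutation p = 0.0028). *Rps29*, one of the smallest proteins of the small subunit, lay between 30.2 and 50.7 CPM in the IPs and between 127 and 161 CPM in the inputs, a log2 difference of -1.81. *Rps12*, *Rps28* and *Rps24* had -1.39, -1.34 and -1.20. *Rps29* was not the lowest of the list, whose values ran from -2.78 to 0.86. At the other end, *Rpl7*, *Rpl15* and *Rpl19* of the large subunit had values of 0.39, 0.35 and 0.33, below the limit of 1.5-fold. *Rps4l* and *Rpl32l* are close copies of other ribosomal protein genes, and how reads that fit both copies were assigned is not given in the sources used here. More members were lower with other scalings, 40 with upper-quartile factors and 43 with none, and 33 without the input of D1 Res 3 and the IP of D1 Sus 3.

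Ribosomal protein mRNAs are known to begin with a run of pyrimidines, the 5′ TOP motif, through which the mTOR pathway controls their translation. The start of the transcript is shown for 3 genes that were lower and 3 that were not. Sequences are from RefSeq on GRCm38.p6, 15 bases on each side of the annotated start. All were picked among genes with the run defined below, with genes of low level and of a single chromosome left out. They had the lowest and the highest differences of those genes, so they do not show how common the run is. A start was counted as having the motif where a C followed by at least 4 further C or T bases began within 5 bases of it. Capitals mark the run from the C nearest to the annotated start that meets this, so that pyrimidines before that C stay in lower case.
*Rps24*, chr14:24490663-24490692, + strand: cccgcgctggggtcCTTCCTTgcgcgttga
*Rps26*, chr10:128626492-128626521, - strand: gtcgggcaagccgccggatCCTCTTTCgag
*Rpl39*, chrX:37085208-37085237, - strand: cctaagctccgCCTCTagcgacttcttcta
*Rps23*, chr13:90923107-90923136, + strand: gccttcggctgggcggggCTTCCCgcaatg
*Rpl19*, chr11:98026695-98026724, + strand: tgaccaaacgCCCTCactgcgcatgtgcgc
*Rpl15*, chr14:18270972-18271001, - strand: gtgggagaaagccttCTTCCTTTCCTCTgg
*Rps24*, *Rps26* and *Rpl39* were lower in the IP, with log2 differences of -1.20, -1.11 and -1.05, whereas *Rps23*, *Rpl19* and *Rpl15* had 0.06, 0.33 and 0.35. With a gene counted if any of its listed starts had it, the run was found for 29 of 58 ribosomal protein genes (50%). It was found for 23.8% of all tested genes with a start, on the transcribed strand alone. Of the ribosomal protein genes, 10 of 21 that were lower (47.6%) and 19 of 37 not called (51.4%) had it. The position of a start in a database can be off by several bases, and the absence of the run from a window draws nothing about the gene.

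Coding length went with the difference within the list. Over 76 ribosomal protein genes with a known coding length, Pearson's r between log length and log2 difference was 0.57, across genes that share the same libraries. Of the 39 genes with a coding length of 468 bases or less, 21 were lower (median -0.60), and of the 37 longer ones, 7 were (median -0.32). Factors of translation elongation are also known as 5′ TOP mRNAs. They were listed together with initiation factors, a poly-A binding protein and related genes. In that mixed list the run was found for 3 of 9 genes with a start (33.3%). Of the 14 genes of the list tested, 1 rose and none fell (median 0.18). *Eef1a1*, the form of elongation factor 1A found in most cells, lay between 1720 and 1880 CPM in the IPs and between 1700 and 1970 CPM in the inputs, with overlap. *Eef1a2*, the form of neurons and muscle, lay between 1370 and 1590 CPM in the IPs and between 638 and 800 CPM in the inputs, a log2 difference of 1.08.

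Nuclear genes of oxidative phosphorylation were higher in the IP. Of 75 tested, 24 rose and none fell, with a median log2 difference of 0.37 that was nearly the same in Res (0.35) and Sus mice (0.38). With upper-quartile factors 17 rose and 1 fell, and without the input of D1 Res 3 and the IP of D1 Sus 3, 21 rose. *Atp5a1* and *Atp5b*, which form the catalytic head of ATP synthase, had log2 differences of 1.15 and 0.97. *Atp5a1* lay between 1270 and 1430 CPM in the IPs and between 586 and 662 CPM in the inputs. *Ndufv1* and *Ndufs1* of complex I had 1.13 and 0.99, and *Uqcrc1* and *Uqcrc2* of complex III had 0.91 each. The lowest values were those of *Ndufa3* (-0.49) and *Cox8a* (-0.35), both below the limit. Coding length again went with the difference (r = 0.72 across 75 genes). Of the 37 genes with a coding length over 432 bases, 21 rose (median 0.605), and of the 38 shorter ones, 3 rose (median 0.145).

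Over all 13749 protein-coding genes with a coding length, no such steady trend was seen. Of the 2743 shortest genes, up to 793 bases, 11.6% were higher and 22.7% lower in the IP. The shares were 18.3% and 25.5% for the next 2756 genes, up to 1225 bases, and 10.3% and 30.3% for the 2752 longest, from 2619 bases.

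Peptide precursors and the granins of dense-core vesicles were among the genes that rose. Of 23 tested, 14 rose and 3 fell (median log2 difference 0.83), and those that fell were the interneuron peptides *Npy*, *Vip* and *Sst*. *Vgf*, a granin that is made by active neurons, lay between 434 and 507 CPM in the IPs and between 166 and 185 CPM in the inputs, a log2 difference of 1.46. *Chga* and *Scg2*, structural granins, had 1.37 and 1.21. *Nts*, which encodes neurotensin, and *Cartpt*, which encodes the CART peptide, had 1.26 and 0.93. *Oxt*, the precursor of oxytocin, was near the limit of detection, at 0 to 5.38 CPM in the IPs and 0 to 4.84 CPM in the inputs, and was not called (log2 difference 0.58).

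Immediate early genes, which neurons switch on within minutes of activity, were higher in the IP for 14 of 18, and 1 fell (median log2 difference 0.86). The zinc finger factor *Egr4* lay between 35.8 and 57.1 CPM in the IPs and between 13.2 and 18.5 CPM in the inputs, and *Egr1* of the same family had a log2 difference of 1.25. *Fos* lay at 17.3, 12.6, 11.1 and 8.89 CPM in the Res IPs and at 9.32, 7.59, 22.4, 13 and 10.6 CPM in the Sus IPs. Its inputs held 6.42, 5.28 and 7.56 CPM in Res and 5.93, 7.04 and 5.36 CPM in Sus mice. The lowest IP was just above the highest input, and the log2 difference was 1.00. *Arc*, whose protein acts at synapses, was between 53.5 and 120 CPM in the IPs and between 32.1 and 50 CPM in the inputs (0.90). *Npas4* went the other way, with 5.18 to 14.4 CPM in the IPs and 11.6 to 28.4 CPM in the inputs (log2 difference -0.92). *Jun* and *Btg2* had values of -0.01 each. *Nr4a2*, an orphan nuclear receptor that cortical cells also make, had a log2 difference of 1.25 with all libraries and 1.53 without the input of D1 Res 3 and the IP of D1 Sus 3.

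In the list of mRNAs known from dendrites 4 of 15 rose and 1 fell (median log2 difference 0.30), a split that became 2 and 3 with no normalization factors. *Camk2a*, the kinase subunit of the postsynaptic density, lay between 2950 and 3580 CPM in the IPs and between 1370 and 2160 CPM in the inputs (log2 difference 0.98). *Arc*, *Nrgn* and the axonal motor *Kif1a* also rose. The scaffold gene *Shank2* fell, from 129 to 169 CPM in the inputs to 69.6 to 99.7 CPM in the IPs (log2 difference -0.73), and its relatives *Shank1* and *Shank3* had values of -0.57 and -0.30.

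Of 15 dopamine and cAMP signalling genes 9 rose and 1, the receptor *Drd5*, fell, with a median log2 difference of 0.74 (8 rose without the input of D1 Res 3 and the IP of D1 Sus 3). Besides *Drd1* and *Ppp1r1b*, the G protein subunits *Gnb5* and *Gnal* had log2 differences of 1.06 and 0.85, and the phosphodiesterase *Pde1b* had 0.87. *Drd5* is a receptor of interneurons and cortex and was low everywhere, at 1.05 to 2.89 CPM in the IPs and 1.61 to 4.31 CPM in the inputs, with overlap (log2 difference -0.62).

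Of 12 genes of glucocorticoid and corticotropin-releasing hormone (CRH) signalling, the hormones of the stress response, 3 rose and 1 fell, where 41.5% of all genes were called, and the median log2 difference of 0.15 turned to -0.01 with no normalization factors. Without the input of D1 Res 3 and the IP of D1 Sus 3, 3 rose and 2 fell. *Fkbp5*, a chaperone of the glucocorticoid receptor, lay at 66.6, 64.9, 67.8 and 72.3 CPM in the Res IPs and at 71.5, 65.1, 64.5, 60.8 and 63 CPM in the Sus IPs, against 34.7 to 42 CPM in the inputs (log2 difference 0.80). Its relative *Fkbp4* had 0.78. The receptor gene *Nr3c1* itself had a value of 0.31. *Hsd11b1*, the enzyme that regenerates active glucocorticoid, fell (log2 difference -2.20), at 0.173 to 0.89 CPM in the IPs and 1.27 to 2.98 CPM in the inputs.

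AMPA receptor subunits carry fast glutamate signals, and some Shisa proteins bind these receptors. Of 16 such genes 3 rose and 1 fell (median log2 difference 0.15, and -0.02 with no normalization factors). The subunit *Gria3* and the auxiliary proteins *Cnih3* and *Cacng8* rose, by log2 differences of 0.72, 0.69 and 0.65, whereas *Gria1* and *Gria2* had values of 0.57 and 0.58, just under the limit of 1.5-fold. With the input of D1 Res 3 and the IP of D1 Sus 3 left out, 5 members rose. *Shisa4* fell (-0.75). *Shisa6* lay at 11.1, 14.8, 13.1 and 10.4 CPM in the Res IPs and at 16.7, 16.5, 21.4, 17.5 and 18.2 CPM in the Sus IPs, and between 13 and 18.5 CPM in the inputs. All Sus IPs were above all Res IPs, while IPs and inputs overlapped, and the log2 difference of -0.10 ± 0.11 (SE) did not pass the test (adjusted p = 0.427).

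By the same rule, the genes with the largest rise in the IP came from no single list. *Nedd9* and *Bcar1*, which encode related adaptor proteins of focal adhesions, had log2 differences of 2.32 and 1.68. *Nedd9* (chromosome 13, 41309581 to 41487362, GRCm38) lay at 44.2, 40.6, 30.6 and 42 CPM in the Res IPs and at 53.9, 50, 36.1, 44.1 and 44.3 CPM in the Sus IPs, and between 7.74 and 9.06 CPM in the inputs. The gap between the groups was wide in both kinds of mice. *Aftph*, which encodes the clathrin accessory protein aftiphilin (chromosome 11, 20685084 to 20741589), ranged from 257 to 466 CPM in the IPs and from 84.1 to 90.8 CPM in the inputs, a log2 difference of 1.99 ± 0.09 (SE, adjusted p = 4.25e-13). *Hsf2*, a heat shock transcription factor, had a log2 difference of 1.82, with 60.1 to 101 CPM in the IPs and 19 to 22.8 CPM in the inputs. The adrenergic receptor *Adra2b* (1.55), the hyaluronan synthase *Has1* (1.67) and the secreted ligand *Wnt10a* (1.58) were low in level. *Igbp1b* (1.92) and *Eno1b* (1.54) are near copies of *Igbp1* and *Eno1*, and *Mir3061* (1.59) is a miRNA gene, so that their reads may belong to other transcripts.

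The difference between IP and input was then compared between Sus and Res mice, to ask whether it went with the outcome of defeat. Changes in the inputs enter this contrast as well, and Sus IPs were not tested against Res IPs directly here. Of 14852 genes, 0 (0%) passed an adjusted p under 0.05 in edgeR's test of the interaction, and DESeq2 also found 0. At an unadjusted p under 0.05 there were 777 genes (5.23%), 461 with a higher IP minus input value in Sus and 316 with a higher one in Res mice. That count was 456 without the input of D1 Res 3, 1462 without the input of D1 Res 2, 559 without the input of D1 Res 3 and the IP of D1 Sus 3, and 489 with same-numbered IPs and inputs paired. Tested apart within this model, 1991 genes were higher and 3951 lower in Res mice, 2127 and 3881 in Sus mice, 1605 and 3472 in both, and 1 gene was called in opposite directions.

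**Figure D4:**
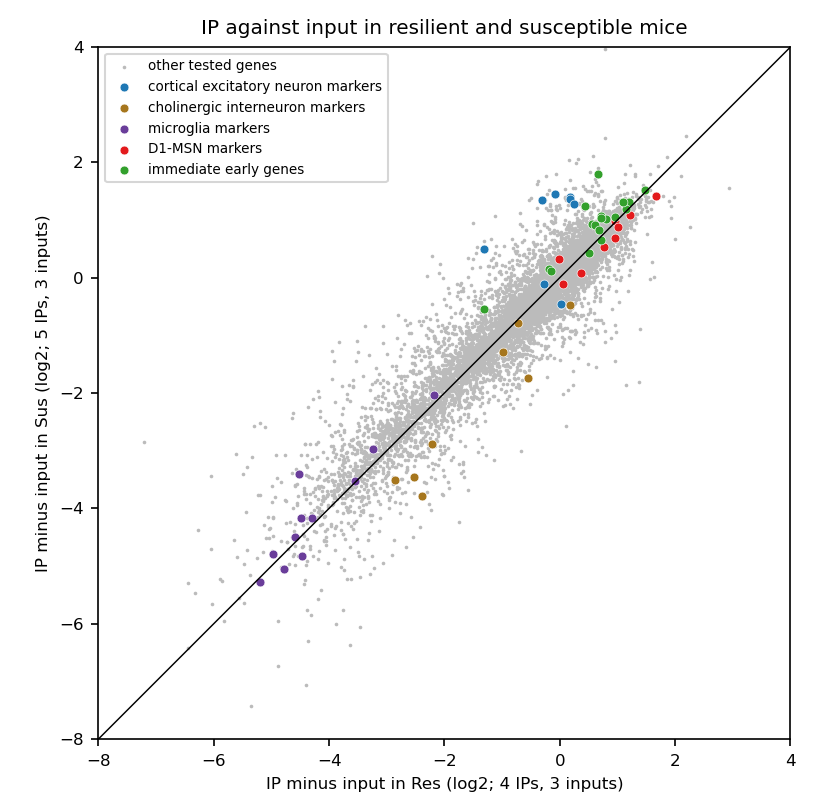
The IP minus input difference (log2) in Res mice is on the x axis and that in Sus mice on the y axis, with 1 point for each of the 14852 genes, 5 lists in colour and a line where both are equal. Points follow the line (Pearson's r of 0.945 across genes of the same libraries), and the cortical markers *Slc17a7*, *Tbr1* and *Neurod2* lie above it.

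The genes with the smallest p in that test were *Rasl12*, *Igfbp6*, *Herc6*, *Asb3* and *Smad2*, each with an adjusted p of 0.882. *Rasl12*, a small GTPase of the Ras family, was at 0.075 to 0.139 CPM in the Res IPs and 0.236 to 0.486 CPM in the Sus IPs, without overlap, and the difference of differences was 2.17 ± 0.48 (SE, log2). *Smad2*, a transducer of TGF-beta signals, was alike in the IPs (43.6 to 45.1 and 41.7 to 44.6 CPM) and differed in the inputs (35.5 to 37.9 and 42.6 to 45.2 CPM), a difference of differences of -0.27. In *Igfbp6* and *Asb3* too, the inputs differed and the IPs overlapped. Of the cortical markers, 5 of 8 had an unadjusted p under 0.05. For *Slc17a7* the difference of differences was 1.20 with a 95% interval from 0.13 to 2.26, and the input of D1 Res 3 and the IP of D1 Sus 3 hold its extreme values. For *Drd1* it was -0.27 (95% interval -0.54 to -0.01, adjusted p = 0.882) and for *Pdyn* -0.25 (-0.58 to 0.08). Both genes had their lowest input value in D1 Res 3 and their lowest IP value in D1 Sus 3. For *Shisa6* the difference of differences was 0.59 (0.19 to 0.98, adjusted p = 0.882), from log2 differences of -0.41 in Res and 0.18 in Sus mice.

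Defeated mice were compared with undefeated D1 mice in the same way, with 4 IPs and 3 inputs of the latter. Of 15105 genes, 0 (0%) passed an adjusted p under 0.05 with edgeR and with DESeq2, and 303 (2.01%) had an unadjusted p under 0.05, 152 and 151 in the 2 directions. The genes with the smallest p, *2900041M22Rik*, *Ccdc24*, *Kcne1l*, *2500004C02Rik* and *Nphs1*, had an adjusted p of 1. Differences between IP and input in controls were 0.83 for *Drd1*, 1.51 for *Pdyn*, -2.62 for *Malat1* and -5.61 for *P2ry12*. Of the genes called after defeat, 90.2% of the higher and 90.8% of the lower were called in the same direction in control mice, which are 84.2% and 94% of the calls there, and 0 were called in the opposite one. These are separate libraries.

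The D1 IP was last set against the D2 IP of defeated mice, each relative to its own input, to ask which differences belong to the D1 ribosomes. Of 15239 genes, 587 (3.85%) had a higher and 279 (1.83%) a lower ratio in D1 by a factor over 1.5 at an adjusted p under 0.05. Of the D1-MSN markers 8 of 9 were higher in D1, *Eya1* being the exception (difference 0.42, adjusted p = 0.115), and all 6 D2-MSN markers were lower. *Pdyn* had log2 differences between IP and input of 1.55 in D1 and -0.67 in D2, and levels of 498 ± 53.5 CPM in the D1 IPs (SD, n = 9) and 98.7 ± 21.8 CPM in the D2 IPs (SD, n = 10), so that the difference of differences was 2.22 ± 0.17 (SE, adjusted p = 1.18e-10). For *Drd1* the difference of differences was 1.16 and for the transcription factor *Ebf1* 2.40. *Sfxn1*, which did not differ from input in D1, was at -0.67 in D2, so that it too separated the types (0.65).

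*Penk*, which rose in the D1 IP by 1.43 in this model, rose by 2.98 in the D2 IP, with 2020 ± 189 CPM in D1 (SD, n = 9) and 5410 ± 346 CPM in D2 (SD, n = 10), a difference of -1.56. *Drd2*, *Adora2a* and *Gpr6* had differences of -1.48, -1.64 and -1.58. Outside the marker lists, the genes with the smallest p were *Tmem163* (1.87), *Igfbp4* (1.39), *Aldh1a1* (2.19) and *Nxph1* (1.00) among those higher in D1, and the phosphatase *Ptprm* (-1.33) and the ecto-nucleotidase *Nt5e* (-1.38) among those lower. *Aldh1a1* encodes a retinaldehyde dehydrogenase and *Igfbp4* binds insulin-like growth factors. *Tmem163* and *Nxph1* did not exceed their inputs in the D1 IP (-0.07 and -0.26), and it was their fall in the D2 IP (-1.94 and -1.25) that set the types apart. *Aldh1a1* was below its input in both types, and more so in D2 (-1.42 in D1 and -3.61 in D2).

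**Figure D5:**
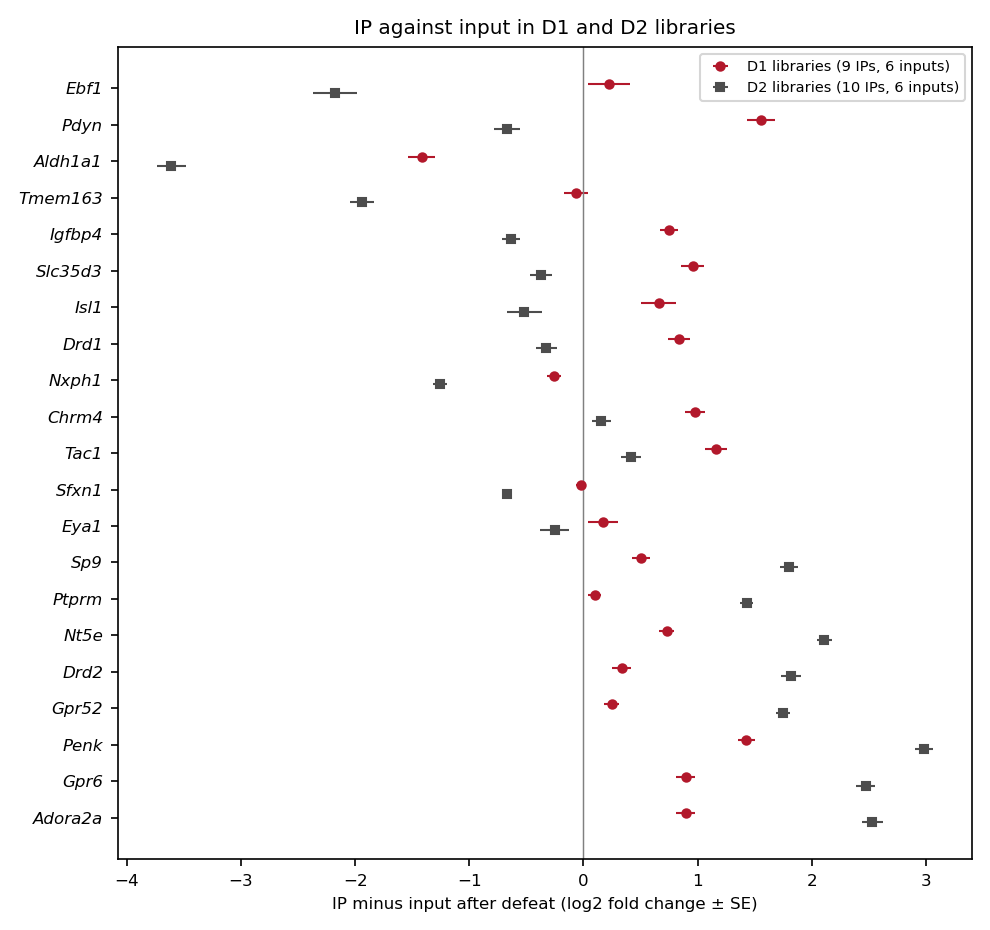
For 21 genes, the marker genes of both MSN types and those with the smallest p, the IP minus input difference (log2, bars are SE) is plotted for the D1 libraries as red circles and for the D2 libraries as grey squares. D2-MSN markers at the bottom are higher in D2, *Penk* by 1.56, and D1-MSN markers at the top are higher in D1, *Pdyn* by 2.22.

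Cholinergic markers were lower in D1 than in D2 for 6 of 8. In the model of both lines *Chat* was -2.54 relative to input in D1 and 0.72 in D2, and the choline transporter *Slc5a7* was -2.98 and 0.17. Of 11 GABAergic interneuron markers 4 were higher and 2 lower in D1 than in D2. Of the glial and vessel lists, 3 of 10 oligodendrocyte, 1 of 6 precursor and 2 of 11 astrocyte markers were less strongly lowered in D1 than in D2, 1 of 11 microglia markers more strongly, and none of 8 endothelial and 8 mural markers passed in either direction. Of 8 cortical markers 3 were higher in D1, with *Slc17a7* at 0.78 in D1 and -1.73 in D2 in that model. Ribosomal protein and oxidative phosphorylation genes had 0 of 78 and 0 of 75 calls between the types at this limit, and their medians were -0.49 and 0.37 in D1 (15 libraries) and -0.47 and 0.34 in D2 (model of both lines). Of the genes called in D1 after defeat, 72.8% of the higher and 84.8% of the lower were called in the same direction in D2, which are 74.7% and 82.4% of the calls there. In the opposite direction were 43 of those higher and 6 of those lower in D1.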

How the data were processed

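NAc punches of 2 mice were pooled for each library. RNA with an integrity number under 7 was excluded, and libraries were made from poly-A RNA with a stranded kit, per the study's methods. For each gene symbol and library the authors deposited a read count from HTSeq, after adapter trimming (cutadapt) and alignment by STAR to the mouse assembly mm10. Tool versions, the annotation and the strand setting of the counting are not given in the sources used here, so that overlapping and antisense genes cannot be told apart. The counts are whole numbers and not normalized.

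Beside 24552 genes, the table has 5 rows for reads given to no gene, which held 20.1% of the reads in the IPs and 37.7% in the inputs and were left out. The table has 2 columns with no matching sample record, which were not used. Groups come from the labels. No 2 libraries were duplicates (lowest chi-square per gene between replicates 3.51). Mice came from several rounds of defeat, per the study's methods, but which pool came from which round is not given in the sources used here, so rounds could not be compared.

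Genes were kept by filterByExpr (minimum count 10, minimum total 15). TMM factors, CPM and quasi-likelihood tests were computed in R 4.3.3 (edgeR 4.0.16, limma 3.58.1) on the 15 libraries compared, with Res or Sus as a covariate. Differences between Res and Sus, defeated and control, and D1 and D2 were contrasts of group means. Adjustment of p over all genes tested followed Benjamini and Hochberg. A call needed an adjusted p under 0.05 and, except in the contrasts of stress groups, a fold over 1.5. Standard errors follow from the F statistic. Single values per library were compared by two-sided exact permutation tests. These exchanged all libraries freely and took no account of the stress group or of pools that an IP and an input may share. Depth was at least 18384265 counts, which limits the precision of genes under about 1 CPM. The programs were tested on simulated counts.

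The comparison, the gene lists and the genes named were chosen with earlier results of these data known. The genes named are list members, the 10 largest differences in each direction without overlap and at 1 CPM or more in the higher group, and those with the smallest p in each contrast. Positions and coding lengths (the longest of each gene) are those of GRCm38 (mm10) in GENCODE vM21, and biotypes and sequences are from RefSeq. Same-numbered IPs and inputs did not deviate together (r from -0.16 to 0.17 over 6 numbers, and 2 of 6 inputs closest to their own number), so numbers were not used as pairs. Alternatives were other scalings and filters, DESeq2 1.42.0, the number as a block, other call limits, other sets of libraries and each library left out. Leaving out the input of D1 Res 3 and the IP of D1 Sus 3 together was chosen after the data were seen.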

Additional observations from a re-analysis of the deposited data

Results flagged for a closer look

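In 120 groups of 4 or 5 libraries, 7 held a library far from the others of its group by Dixon's criterion, where chance gives about 1 in 20. In the Res IPs, D1 Res 1 held 6.72 CPM of *Chat* against 1.57 to 2.12 CPM in the others, a sum of 57.07 CPM over the cholinergic markers against 30.15 to 32.63 CPM, and 3.34 CPM of *Oxt* against 1.02 to 1.32 CPM. In the Sus IPs, D1 Sus 5 held 1740 CPM of *Malat1* against 479 to 811 CPM, and D1 Sus 3 held 3.14 CPM of *Pvalb* against 5.35 to 6.24 CPM. Reads that mapped to more than 1 place were 4.995% in the IP of D1 Res 4, against 4.642% to 4.694% in the other Res IPs, and 6.187% in that of D1 Sus 5, against 4.605% to 4.997% in the other Sus IPs.

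Only the markers of both MSN types and the genes with the smallest p between D1 and D2 mice were checked here. The difference between IP and input differed between D1 and D2 mice for 20 of them, all but *Eya1*, by the test of the contrast itself. Of all 15239 genes tested, 3.85% were higher and 1.83% lower in D1. Higher in D1 were *Pdyn* (2.222 on the log2 scale), *Ebf1* (2.403), *Aldh1a1* (2.194), *Tmem163* (1.875), *Igfbp4* (1.388), *Slc35d3* (1.327), *Isl1* (1.174), *Drd1* (1.161), *Nxph1* (0.997), *Chrm4* (0.82), *Tac1* (0.745) and *Sfxn1* (0.648). Lower in D1 were *Adora2a* (-1.637), *Gpr6* (-1.578), *Penk* (-1.556), *Gpr52* (-1.5), *Drd2* (-1.483), *Nt5e* (-1.382), *Ptprm* (-1.331) and *Sp9* (-1.297). For the marker genes among them the direction follows from how the lists were chosen. The genes outside the marker lists were picked by their p in this same contrast, so that they passed was fixed by that choice. Other genes named above were not counted here, and some of those also differed, such as *Chat* (-3.262) and *Slc17a7* (2.509).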

How the results depend on the processing

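Counts of genes moved by over 1.5 times under a few settings. Genes higher in the IP numbered 1293 with upper-quartile factors, 1057 with no factors, 1370 with glmTreat against a fold of 1.5 and 5731 with no limit on the fold, and genes lower 2684 with a mean of at least 50 counts, where fewer genes were tested. Between D1 and D2, 1283 and 1116 genes passed with no limit on the fold. Leaving out 1 library at a time gave 1975 to 2129 genes higher and 4066 to 4222 lower, 534 to 659 and 216 to 329 between D1 and D2, 0 in both contrasts of stress groups, and differences of -14.26 to -13.63 percentage points in the share of reads outside exons and -0.2913 to -0.2601 in that of ribosomal proteins, which was -0.0607 as a share of all reads. With the replicate number as a block, 2132 genes were higher and 4007 lower, 640 and 214 between D1 and D2, and 0 in each contrast of stress groups, with 489 (Sus and Res) and 368 (defeated and control) at an unadjusted p under 0.05.

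Values near 0 turned their sign. With upper-quartile factors, none and a mean of at least 50 counts, in that order, *Rpl22l1* came to -0.048, -0.087 and -0.023, *Ptprm* to -0.034, -0.076 and -0.01, and *Rpl4* to -0.044, -0.086 and -0.02. *Smad2* came to -0.006 with upper-quartile factors, -0.048 with none and -0.028 in Sus mice alone, and *Rpl22l1* to -0.015 without the input of D1 Res 3 and the IP of D1 Sus 3. With no factors *Arpp21* was -0.017, *Rpl3* -0.024, and the medians of the glucocorticoid and AMPA receptor lists -0.011 and -0.016. *Tmem163* ran from -0.139 to 0.031 when 1 library was left out (0.016, 0.011 and 0.031 without the IP of D1 Res 1, the IP of D1 Res 4 and the input of D1 Res 3) and was 0.322 in Sus mice alone, where *Shisa6* was 0.165. In Res mice alone the cortical median was -0.04 and the ependymal median 0.631. The cause was not tested. Genes near 1 CPM in the inputs had few counts in the IPs, which limits the size of their folds.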
